A study of Mus musculus with 14 samples.

Results

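The genes described are 10 members of the BCL2 family: Bcl2, Mcl1, Bcl2l1, Bcl2a1b and Bcl2a1d, which encode pro-survival proteins, Bak1, which encodes a pore-forming effector of cell death, and Bcl2l11, Bid, Bmf and Bad, which encode BH3-only proteins. They were taken by name from the 22048 protein-coding genes of a table of RNA sequencing read counts. Each name matched 1 row, and all 10 were among the 12343 genes that passed a filter on low counts and were tested.

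The cells were mouse CD4+ T cells of spleen and peripheral lymph nodes, from C57BL/6 mice carrying an IFN-g-YFP reporter, in which yellow fluorescent protein marks cells that express the cytokine interferon-gamma. In the naive group (n = 3) CD4+ CD44- CD62L+ cells were sorted without culture. For the other groups CD4+ T cells were enriched, without selection of naive cells, and kept for 4 days with IL-12 and IL-2 (10 ng/ml of each), anti-IL4 (10 µg/ml) and, bound to the plate, anti-CD3 with anti-CD28 (1 µg/ml of each), a mixture that directs the cells to the Th1 fate. During culture 1 µM of SGC0946, which inhibits the histone methyltransferase DOT1L, or 1 µM of SGC0649, its inactive control compound, was present, and YFP-positive and YFP-negative cells were sorted at the end. The YFP-negative cells form the groups YFPneg SGC0649, with 2 libraries, and YFPneg SGC0946, with 3. The YFP-positive cells form YFPpos SGC0649 and YFPpos SGC0946, with 3 each. Every cultured group had thus received a compound, and cultures without one were not analysed here. The sources used here do not state the age or sex of the mice. The study calls its replicates biological without saying that they came from separate animals, so p-values measure the spread between these samples.

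Library totals ran from 14486600 to 31614100 counts. The CD4 T cell markers summed to 3121 to 4939 CPM over the 14 libraries (read counts relative to library totals scaled with TMM factors). Markers of B cells, dendritic cells and red cells stayed at or under 2.61 CPM in all libraries. Other marker lists moved with the groups. The 5 neutrophil markers summed to 0 to 0.454 CPM in naive cells, 7.45 to 21.3 in YFPneg SGC0649, 33.8 to 74.2 in YFPneg SGC0946, 3.72 to 42.4 in YFPpos SGC0649 and 94.2 to 138 in YFPpos SGC0946. In the cultured groups Ly6g was the highest of them, with a mean of 119.8 CPM in YFPpos SGC0946, and 2 to 4 of the 5 markers were at 0 in every library of a group. NK cell markers summed to 0.685 to 1.59 CPM in naive cells, 0.411 to 0.762 in YFPneg SGC0649, 0.562 to 3.05 in YFPneg SGC0946, 1.90 to 4.04 in YFPpos SGC0649 and 6.71 to 7.39 in YFPpos SGC0946, and monocyte and macrophage markers to 5.67 to 8.34 CPM in naive cells, 0.411 to 6.20 in YFPneg cells, 5.22 to 6.45 in YFPpos SGC0946 and at most 1.996 in YFPpos SGC0649. CD8 T cell markers summed to 16.1 to 19.3 CPM for naive libraries, 6.50 to 19.7 for YFPneg libraries and 4.76 to 6.63 for YFPpos libraries. Naive T cell markers summed to 4462 to 4772 CPM for naive libraries, 2919 to 3631 for YFPneg libraries and 1579 to 1978 for YFPpos libraries. Regulatory T cell markers summed to 111 to 183 CPM for naive libraries, 1367 to 1811 for YFPneg libraries and 3041 to 3739.8 for YFPpos libraries. Most of the cultured sums was Il2ra, which activated T cells also express. Its means were 51.9 CPM in naive cells, 1449.7 in YFPneg SGC0649, 1285.9 in YFPneg SGC0946, 2769.8 in YFPpos SGC0649 and 3150.6 in YFPpos SGC0946. The part of these cell types in the comparisons of compounds, of sorts and with naive cells was not tested. Ifng had 0.0623 ± 0.108 CPM in naive cells (SD, n = 3), 33.8 ± 11.8 in YFPneg SGC0649 (n = 2), 66.8 ± 42.5 in YFPneg SGC0946 (n = 3), 737 ± 169 in YFPpos SGC0649 (n = 3) and 645 ± 97.3 in YFPpos SGC0946 (n = 3). Reads that did not map made up 7.40 to 8.66% in the naive libraries, 3.14 to 4.62% in the YFPneg libraries, 6.44 to 8.35% in 5 of the 6 YFPpos libraries and 3.61% in YFPpos SGC0946 replicate 2. The share of reads assigned to genes was 57.2 to 57.9% for the naive libraries, 63.6 to 65.2% for those of YFPneg cells and 58.2 to 64.1% for those of YFPpos cells. The part of these differences in the comparisons with naive cells and of the sorts was not tested. YFPneg SGC0946 replicate 3 had the smallest total. In bulk RNA, fewer cells of a kind that express a gene and less of its RNA per cell cannot be told apart.

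BCL2 family proteins decide at the mitochondrial outer membrane whether a cell dies by the intrinsic route of apoptosis. The pro-survival proteins hold BAX and BAK1 in check. BH3-only proteins, produced or activated under stress or loss of survival signals, bind the pro-survival proteins or engage BAX and BAK1 directly, after which cytochrome c leaves the mitochondria and caspases are activated. In T cells, BCL2 is known for supporting resting cells that receive IL-7, BCL-XL (the product of Bcl2l1) and A1 (the product of the Bcl2a1 genes) for induction after antigen receptor signals, MCL1 for survival at all stages, and BIM (the product of Bcl2l11) for the death of T cells after a response.

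Mouse Bcl2a1b and Bcl2a1d are near-identical copies, and their coding sequences are shown because this limits how far reads can be assigned to either. The start of the coding sequence (GENCODE M21, GRCm38), from coding base 1 to 120, is printed for both and for the third copy, Bcl2a1a, with capitals at the 7 positions where the copies differ:
Bcl2a1a: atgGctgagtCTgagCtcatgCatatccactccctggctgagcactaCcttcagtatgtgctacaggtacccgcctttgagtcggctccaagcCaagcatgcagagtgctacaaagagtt
Bcl2a1b: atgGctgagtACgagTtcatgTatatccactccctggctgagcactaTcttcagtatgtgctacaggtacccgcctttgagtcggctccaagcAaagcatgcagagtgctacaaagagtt
Bcl2a1d: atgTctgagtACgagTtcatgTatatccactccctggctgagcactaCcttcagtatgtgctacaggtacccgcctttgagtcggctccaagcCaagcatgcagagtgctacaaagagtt
Over the 519 coding bases Bcl2a1b and Bcl2a1d differed at 6 positions, Bcl2a1b and Bcl2a1a at 11, and Bcl2a1d and Bcl2a1a at 7, and the longest stretch shared by all 3 copies was 217 bases. Of all 50-base stretches of the exons, 79.17% in Bcl2a1b and 79.48% in Bcl2a1d also occurred in another gene. Counts of each copy are therefore uncertain, and results are also given for the counts of the 3 copies summed. Reads that mapped to several places, 21.5 to 25.7% per library, were left unassigned. Reads that fit more than 1 copy may therefore be missing from the sum as well. Bcl2a1a alone had at most 5 counts in any library. Bcl2a1b also shares exon bases with Gm29094 on its own strand. Exons of Bcl2, Bak1, Bid and Bad overlap those of D630008O14Rik, Ggnbp1, Bcl2l13 and Gpr137 on the other strand, and the table is named as counted by strand.

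Upstream sequence is shown for these copies, which were both higher in cultured than in naive cells, and for Mcl1 and Bcl2l1, which moved in opposite directions. The sequences come from the RefSeq promoter table for GRCm38.p6, which held all 10 genes, cut to the bases before the annotated first exon and printed 5′ to 3′ on the gene's strand. Capitals mark a match to a searched motif.
Bcl2a1b, chr9:89199023-89199208, plus strand: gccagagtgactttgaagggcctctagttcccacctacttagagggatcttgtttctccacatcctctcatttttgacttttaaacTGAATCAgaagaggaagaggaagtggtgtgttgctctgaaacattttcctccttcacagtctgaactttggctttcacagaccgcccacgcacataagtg
Bcl2a1d, chr9:88731915-88732100, minus strand: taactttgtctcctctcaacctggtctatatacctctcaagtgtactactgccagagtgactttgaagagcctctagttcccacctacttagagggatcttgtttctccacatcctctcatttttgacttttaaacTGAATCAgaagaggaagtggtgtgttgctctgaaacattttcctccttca
Mcl1, chr3:95658471-95658720, plus strand: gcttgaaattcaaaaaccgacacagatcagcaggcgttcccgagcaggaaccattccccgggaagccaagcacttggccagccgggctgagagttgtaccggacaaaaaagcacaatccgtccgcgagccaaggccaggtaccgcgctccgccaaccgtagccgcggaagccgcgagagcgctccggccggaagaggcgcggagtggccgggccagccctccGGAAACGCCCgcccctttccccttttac
Bcl2l1, start site farthest upstream, chr2:152831729-152831978, minus strand: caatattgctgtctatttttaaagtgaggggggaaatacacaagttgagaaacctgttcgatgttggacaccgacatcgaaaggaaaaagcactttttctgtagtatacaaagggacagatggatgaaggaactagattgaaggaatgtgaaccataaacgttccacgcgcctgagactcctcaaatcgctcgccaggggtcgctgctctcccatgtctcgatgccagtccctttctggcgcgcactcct
The 5 motifs searched on both strands were a STAT site (TTCNNNGAA), a kappaB site (GGG and TTTCC with any 2 bases between), a FOXO site (GTAAACA), an AP-1 site (TGANTCA) and a T-box site (TCACACC), which do not contain one another. Both Bcl2a1 windows held the AP-1 letters, found in 6.75% of the 32851 mouse promoters of 250 bases searched. The Mcl1 window held the kappaB letters on the reverse strand, found in 1.41% of them, and the printed Bcl2l1 window held no match. Of the other members, the first Bcl2l11 start site had the FOXO letters 227 bases upstream, which 3.17% of promoters had, while the 2 other Bcl2l1 start sites, whose windows lie inside the annotated gene and are not printed, had 1 kappaB and 1 T-box match. Aligned with each other, the promoter entries of Bcl2a1b and Bcl2a1d were identical at 198 bases and mismatched at 2. Another 100 of the 300 alignment positions were gaps, and their annotated start sites differ. A match describes the letters only.

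Relative to naive cells most of the family differed after 4 days of Th1 culture. Bcl2, Bcl2l1, Bcl2a1b, Bcl2a1d, Bak1 and Bad were higher in every cultured group. Mcl1 and Bid were lower in every cultured group, and Bcl2l11 and Bmf differed in some. The cultures began from CD4+ T cells not selected as naive, and each held a compound. Culture, starting cells and the presence of a compound therefore cannot be told apart against naive cells. Rose and fell mean higher and lower than in the group compared. Changes were called at an adjusted p under 0.05 from edgeR's quasi-likelihood test, with Benjamini-Hochberg adjustment over all genes tested, and every adjusted p in this account comes from that test unless another is named. In YFPpos SGC0649 against naive cells 6 of the 10 members rose (42.6% of all genes) and 3 fell (37.3%), where 79.8% of all genes were called in either direction. In YFPneg SGC0649 6 of the 10 members rose (36.4% of all genes) and 3 fell (32.6%), where 69% of all genes were called in either direction. In YFPpos SGC0946 7 of the 10 members rose (42.2% of all genes) and 2 fell (38.5%), where 80.7% of all genes were called in either direction. In YFPneg SGC0946 7 of the 10 members rose (38.6% of all genes) and 3 fell (34.3%), where 72.9% of all genes were called in either direction. The libraries of the 2 groups did not overlap for 9, 9, 10 and 9 members in that order, as for 86.4%, 80.2%, 88.3% and 71.8% of all genes. The counts of 9 or 10 of 10 thus stand against a background in which most genes were called. The members' median log2 difference was 0.88, 0.94, 0.93 and 0.77 in that order, beside 0.09, 0.03, 0.05 and 0.05 over all genes. The members were chosen with earlier results of these data known, so these medians are a description only. Bcl2a1b and Bcl2a1d, whose reads are hard to assign to either copy, are counted as separate members. These 4 comparisons share the 3 naive libraries, so their values are given side by side only.

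**Figure D1:**
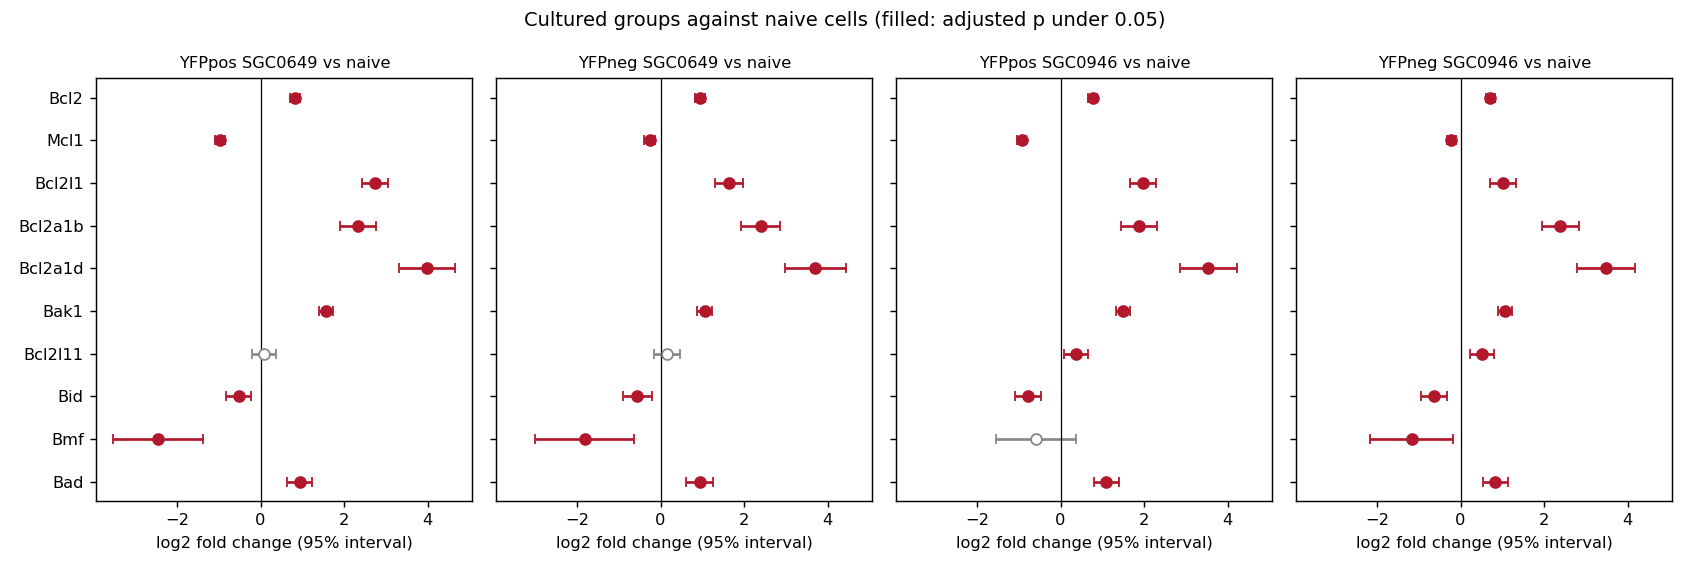
Log2 fold change of each member in the 4 cultured groups against naive cells, with 95% intervals from edgeR; filled points have an adjusted p under 0.05. Mcl1 and Bid lie below 0 in all 4 groups, and Bcl2a1d, at 3.48 to 3.98, lies farthest above.

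Between the reporter sorts the family split: Bcl2l1 and Bak1 were higher and Mcl1 was lower in YFPpos than in YFPneg cells with either compound. With SGC0649 2 of the 10 members rose (23.9% of all genes) and 1 fell (21.3%), where 45.2% of all genes were called in either direction. With SGC0946 2 of the 10 members rose (26.9% of all genes) and 2 fell (27.8%), where 54.7% of all genes were called in either direction, the second that fell being Bcl2a1b. The share of members called was thus below that of all genes in both. The libraries did not overlap for 4 members with SGC0649 and 4 with SGC0946, beside 64.7% and 59.6% of all genes. The median log2 difference of the members was -0.03 with SGC0649 and 0.05 with SGC0946, beside 0.04 and 0.01 over all genes.

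With the DOT1L inhibitor Bcl2l1 was lower in both sorts than with the control compound, at the same dose and time. The sums of the neutrophil, NK cell and monocyte markers did not overlap between the compounds in YFPpos cells and were higher with the inhibitor. The same held there for the dendritic cell sums (0 to 0.217 and 1.03 to 1.38 CPM) and the regulatory T cell sums. In YFPneg cells it held for the neutrophil, monocyte, CD8 T cell, naive T cell, CD4 T cell and Th1 marker sums. The part of all these sums was not tested. In YFPpos SGC0946 the neutrophil, NK cell and monocyte sums each came mostly from their highest gene. The means were 119.8 CPM for Ly6g, 6.89 for Klre1 and 5.55 for Itgam, so the sums need not reflect whole cell types. In YFPpos cells Bmf rose and Bcl2l1 fell: 1 of the 10 members rose (12.1% of all genes) and 1 fell (15.7%), where 27.7% of all genes were called in either direction. In YFPneg cells Bcl2l1 and Bcl2 fell: 0 of the 10 members rose (4.99% of all genes) and 2 fell (3.64%), where 8.63% of all genes were called in either direction. The libraries did not overlap for 4 members in YFPpos cells and 3 in YFPneg cells, beside 57.2% and 29.8% of all genes. The members' medians were -0.06 and -0.05, beside -0.04 and 0.01 over all genes. Of all genes in YFPpos cells, 1490 rose and 1934 fell, and this split turned to 1788 and 1208 with upper-quartile factors and to 1702 and 1388 with DESeq2's size factors, while no called member changed direction under these or with library totals alone. A compound difference that differed between the sorts was not called for any member: the interaction called 0 of 10, with 1 at an unadjusted p under 0.05, and DESeq2 and limma-voom also called 0. Over all genes the interaction called 1.15%, or 142 genes, of which 32 were higher and 110 lower (39 and 80 with DESeq2's size factors).

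**Figure D2:**
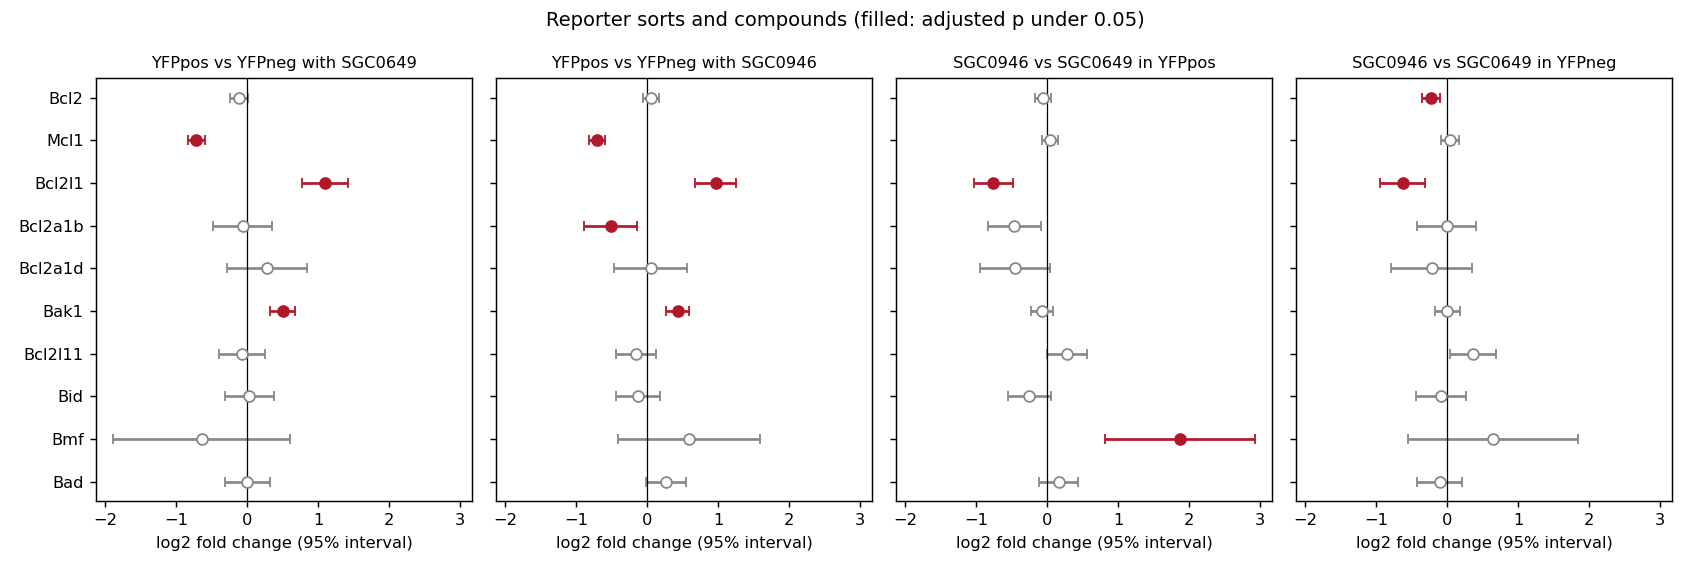
Log2 fold change of each member in the 2 comparisons of the reporter sorts and the 2 comparisons of the compounds, with 95% intervals from edgeR; filled points have an adjusted p under 0.05. Bcl2l1 and Bak1 lie above 0 and Mcl1 below 0 between the sorts, and Bcl2l1 lies below 0 between the compounds, at -0.76 and -0.63.

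Bcl2, the founding pro-survival gene (chr1:106538178-106714274, minus strand), was lowest in naive cells, at 228, 247 and 238 CPM in replicates 1 to 3. Positions of genes are those of GENCODE M21 on GRCm38. It had 463 and 448 CPM in YFPneg SGC0649, 386, 371 and 411 in YFPneg SGC0946, 406, 425 and 432 in YFPpos SGC0649, and 398, 411 and 404 in YFPpos SGC0946. All cultured libraries lay above all naive ones, and among the cultured groups the YFPneg SGC0649 libraries were highest. Against naive cells the log2 difference was 0.83 (SE 0.05, adjusted p 1.4e-10) in YFPpos SGC0649, 0.94 (SE 0.06, adjusted p 2.0e-10) in YFPneg SGC0649, 0.77 (SE 0.05, adjusted p 4.0e-10) in YFPpos SGC0946 and 0.71 (SE 0.05, adjusted p 2.0e-09) in YFPneg SGC0946. In YFPneg cells Bcl2 was lower with SGC0946 than with SGC0649, with a log2 difference of -0.23 (SE 0.06, adjusted p 0.026), and the libraries did not overlap. That call ended without YFPneg SGC0649 replicate 1 (adjusted p 0.10), without YFPneg SGC0649 replicate 2 (0.077), without YFPneg SGC0946 replicate 2 (0.055) and when only the 2 groups were fitted (0.25). In YFPpos cells the difference between the compounds was -0.06 (95% interval -0.17 to 0.05). Between the sorts Bcl2 differed by -0.11 (95% interval -0.24 to 0.01) with SGC0649, where the libraries did not overlap. With SGC0946 the sorts differed by 0.05 (95% interval -0.06 to 0.16), and neither was called. The interaction was 0.17 (95% interval 0.00 to 0.33), with an adjusted p of 0.36, and it is the member that passed an unadjusted p of 0.05.

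Mcl1, a pro-survival gene whose protein is short-lived (chr3:95658788-95663176, plus strand), ran the other way. Naive cells had 916, 960.1 and 889 CPM, YFPneg SGC0649 had 774 and 762, and YFPneg SGC0946 had 771, 759 and 845. YFPpos cells had the least, with 488, 465 and 455 CPM under SGC0649 and 488, 488 and 476 under SGC0946. The naive, YFPneg and YFPpos libraries formed 3 levels that did not overlap. From naive to YFPpos the log2 difference was -0.97 (SE 0.05, adjusted p 1.7e-11) with SGC0649 and -0.93 (SE 0.05, adjusted p 3.1e-11) with SGC0946. From naive to YFPneg it was -0.26 (SE 0.06, adjusted p 0.00087) and -0.22 (SE 0.05, adjusted p 0.0013). Between the sorts Mcl1 differed by -0.71 (SE 0.06, adjusted p 6.3e-08) with SGC0649 and -0.71 (SE 0.05, adjusted p 1.0e-08) with SGC0946. The compounds overlapped in each sort, with differences of 0.04 (95% interval -0.07 to 0.16) in YFPpos and 0.04 (95% interval -0.08 to 0.17) in YFPneg cells.

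Bcl2l1, the gene of BCL-XL (chr2:152780668-152831728, minus strand), separated all 5 groups in every library. Its CPM were 14.3, 16.1 and 15.8 in naive cells, 33.2, 27.3 and 32.9 in YFPneg SGC0946, 44.00 and 52.2 in YFPneg SGC0649, 60.3, 57.8 and 63.9 in YFPpos SGC0946, and 80.97, 96.7 and 130.1 in YFPpos SGC0649. No 2 groups overlapped, and the spread was widest in YFPpos SGC0649, at 103 ± 25.1 CPM (SD, n = 3). Against naive cells the log2 difference was 2.73 (SE 0.15, adjusted p 1.2e-11) in YFPpos SGC0649, 6.65-fold, and 1.98 (SE 0.15, adjusted p 9.7e-10) in YFPpos SGC0946. In YFPneg cells it was 1.64 (SE 0.16, adjusted p 7.0e-08) with SGC0649 and 1.01 (SE 0.15, adjusted p 1.1e-05) with SGC0946. YFPpos exceeded YFPneg cells by 1.09 (SE 0.15, adjusted p 2.2e-05) with SGC0649 and by 0.96 (SE 0.14, adjusted p 1.6e-05) with SGC0946. The inhibitor gave -0.76 (SE 0.13, adjusted p 0.00056) in YFPpos cells, a level 1.69-fold lower, and -0.63 (SE 0.15, adjusted p 0.020) in YFPneg cells, 1.54-fold lower. In YFPneg cells that call ended without YFPneg SGC0649 replicate 2 (-0.50, adjusted p 0.16) and without YFPneg SGC0946 replicate 2 (-0.54, adjusted p 0.053). The compound difference in YFPpos minus that in YFPneg cells was -0.13 (95% interval -0.56 to 0.30).

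Bcl2a1b (chr9:89199209-89207827, plus strand) and Bcl2a1d (chr9:88723285-88731914, minus strand), the A1 copies, had few counts in naive cells. Bcl2a1b had 2.64, 2.99 and 4.08 CPM there, against 18.9 and 15.2 in YFPneg SGC0649, 13.7, 15.3 and 22.1 in YFPneg SGC0946, 15.01, 16.1 and 18.04 in YFPpos SGC0649, and 13.1, 10.5 and 12.1 in YFPpos SGC0946. Bcl2a1d had 0.420, 1.68 and 0.680 CPM in naive cells, 15.1 and 8.89 in YFPneg SGC0649, 12.3, 10.4 and 8.09 in YFPneg SGC0946, 14.1, 14.1 and 15.4 in YFPpos SGC0649, and 11.3, 11.1 and 9.64 in YFPpos SGC0946. Every cultured library was above every naive one for both copies. The 3 copies summed had 4.16 ± 0.960 CPM in naive cells (SD, n = 3), 29.0 ± 6.99 in YFPneg SGC0649 (n = 2), 27.3 ± 2.51 in YFPneg SGC0946 (n = 3), 31.0 ± 2.20 in YFPpos SGC0649 (n = 3) and 22.6 ± 1.57 in YFPpos SGC0946 (n = 3). On the summed counts the log2 difference from naive cells was 2.90 (SE 0.16, adjusted p 2.7e-11) in YFPpos SGC0649, 2.80 (SE 0.18, adjusted p 2.4e-10) in YFPneg SGC0649, 2.44 (SE 0.17, adjusted p 3.0e-10) in YFPpos SGC0946 and 2.71 (SE 0.17, adjusted p 1.5e-10) in YFPneg SGC0946. The single copies gave 1.87 to 2.39 for Bcl2a1b and 3.48 to 3.98 for Bcl2a1d, all called.

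For both A1 copies the 3 YFPpos SGC0946 libraries lay below the 3 YFPpos SGC0649 libraries, with log2 differences of -0.46 (SE 0.18, adjusted p 0.060) for Bcl2a1b and -0.45 (SE 0.23, adjusted p 0.17) for Bcl2a1d. Neither passed the test, but the summed counts did, with -0.46 (SE 0.14, adjusted p 0.019). Each copy also passed with limma-voom (adjusted p 0.025 and 0.040) and in edgeR when only the 2 groups were fitted (0.015 and 0.0091). These copies, Bcl2l1 and Bmf are the 4 members that did not overlap between the compounds in YFPpos cells. In YFPneg cells the summed counts differed by -0.09 (SE 0.16, adjusted p 0.75). Bcl2a1b was lower in YFPpos than in YFPneg cells with SGC0946, with a difference of -0.51 (SE 0.18, adjusted p 0.022), while the summed counts gave -0.27 (SE 0.14, adjusted p 0.11). The call for Bcl2a1b also ended without YFPneg SGC0946 replicate 3 (-0.29, adjusted p 0.13), without YFPpos SGC0946 replicate 2 (-0.43, adjusted p 0.086), without YFPpos SGC0946 replicate 3 (-0.53, adjusted p 0.052) and without both of the first 2 (-0.21, adjusted p 0.32). Bcl2a1b had its highest level in YFPneg SGC0946 replicate 3, where Bcl2a1d was lowest among the cultured libraries.

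**Figure D3:**
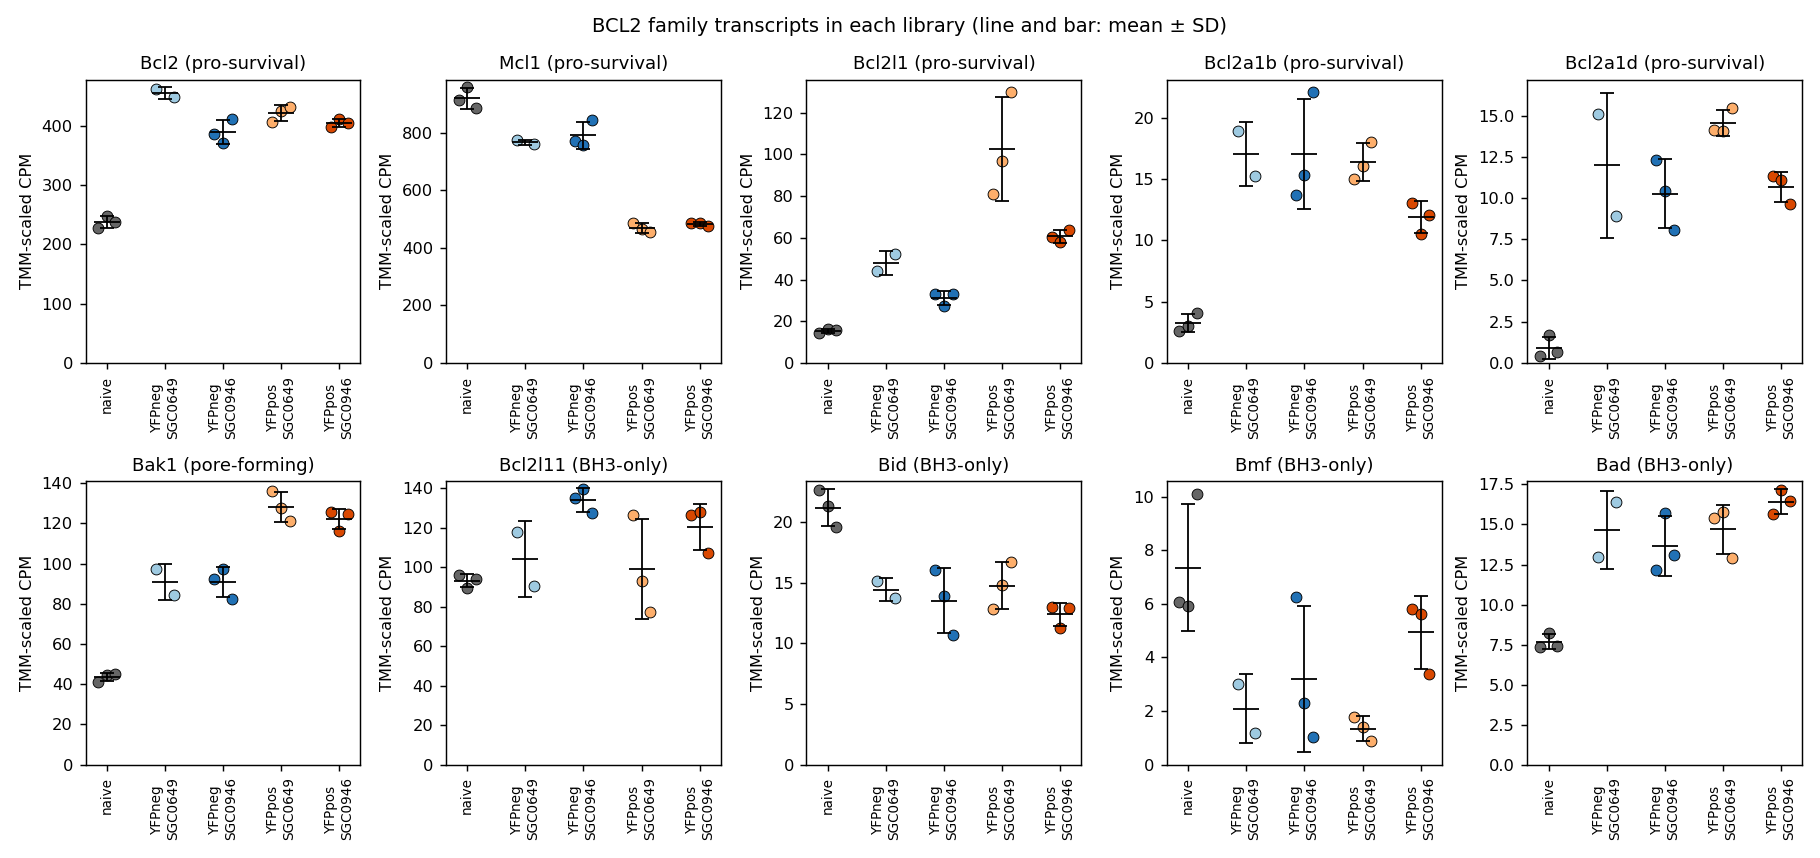
TMM-scaled CPM of each member in every library, by group; the line and bar give the mean and SD. Bcl2l1 separates all 5 groups, Mcl1 steps down from naive through YFPneg to YFPpos cells, and Bmf scatters in YFPneg SGC0946 from 1.05 to 6.25 CPM.

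Levels of different genes can be compared per length, as CPM per kilobase of annotated exon. On that scale Mcl1 was the most abundant member in every group, at 269.6 ± 10.6 in naive cells (SD, n = 3) and 137 ± 4.91 in YFPpos SGC0649 (n = 3). Bcl2 came second in naive and YFPneg cells, and Bak1 second in YFPpos cells. Among the pro-survival genes together (Mcl1, Bcl2, Bcl2l1 and the pair Bcl2a1b and Bcl2a1d), Mcl1 held 88.7 ± 0.68% of the summed level per kilobase in naive cells (n = 3), 70.3 ± 1.6% in YFPneg SGC0649 (n = 2), 73.8 ± 0.29% in YFPneg SGC0946 (n = 3), 56.6 ± 3.0% in YFPpos SGC0649 (n = 3) and 62.7 ± 0.44% in YFPpos SGC0946 (n = 3). The ranges of these groups did not overlap. Bcl2 held 8.53 ± 0.25% in naive cells and 19.0 ± 0.44% in YFPpos SGC0649, and the A1 pair went from 1.66 ± 0.37% to 15.2 ± 0.79% (n = 3 each). Bcl2l1 held 1.11 ± 0.063% in naive cells, 3.29 ± 0.50% in YFPneg SGC0649 (n = 2), 2.16 ± 0.19% in YFPneg SGC0946, 9.19 ± 2.0% in YFPpos SGC0649 and 5.86 ± 0.34% in YFPpos SGC0946 (n = 3 each). The ratio of Mcl1 to Bcl2l1 per kilobase was 80.3 ± 5.23 in naive cells, 34.3 ± 3.10 in YFPneg SGC0946, 21.6 ± 2.83 in YFPneg SGC0649 (n = 2), 10.7 ± 0.671 in YFPpos SGC0946 and 6.41 ± 1.69 in YFPpos SGC0649 (n = 3 elsewhere). These shares describe RNA, with one length per gene whichever transcript the cells make. The lengths of the A1 copies include the stretches shared with other genes, where reads may go unassigned. The A1 share may thus be understated and the other shares overstated. Bcl2l2, another pro-survival gene, is not in the sum.

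**Figure D4:**
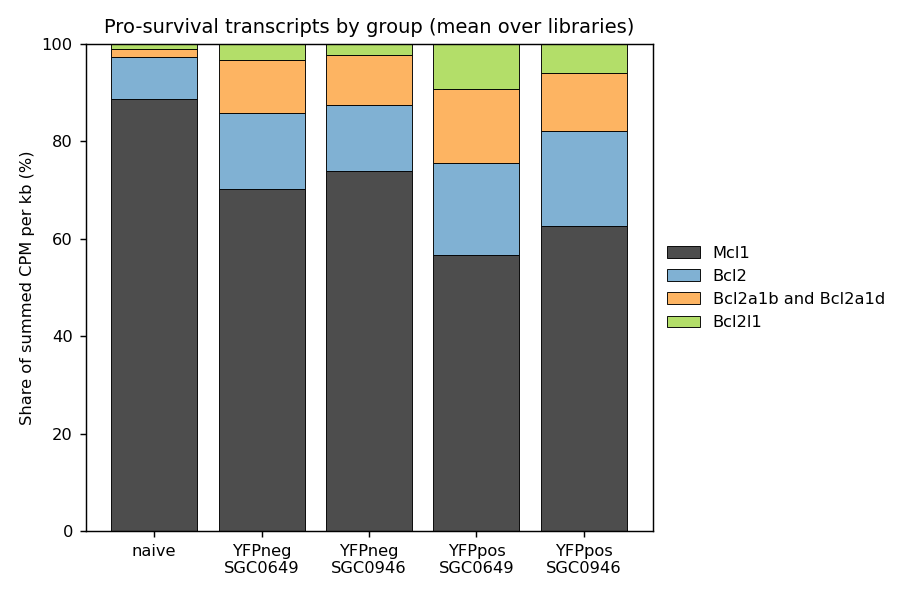
Share of each pro-survival gene or pair in their summed CPM per kilobase, in percent, as the mean over the libraries of a group. Mcl1 takes 88.7% in naive cells and 56.6% in YFPpos SGC0649, where the other genes take larger shares.

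Bak1, whose protein forms pores in the mitochondrial outer membrane (chr17:27019810-27029009, minus strand), was higher in cultured than in naive cells and higher again in YFPpos cells. Naive cells had 41.1, 44.4 and 45.3 CPM, YFPneg SGC0649 had 97.1 and 84.4, YFPneg SGC0946 had 92.3, 97.5 and 82.6, YFPpos SGC0649 had 136, 127 and 121, and YFPpos SGC0946 had 126, 116 and 124. The naive, YFPneg and YFPpos levels did not overlap, while the compounds overlapped in each sort. The log2 difference from naive cells was 1.56 (SE 0.08, adjusted p 4.4e-12) and 1.49 (SE 0.08, adjusted p 7.9e-12) in YFPpos cells with SGC0649 and SGC0946. In YFPneg cells it was 1.06 (SE 0.08, adjusted p 6.2e-09) and 1.06 (SE 0.08, adjusted p 1.7e-09). YFPpos exceeded YFPneg cells by 0.50 (SE 0.08, adjusted p 0.00014) with SGC0649 and by 0.43 (SE 0.07, adjusted p 0.00012) with SGC0946. The inhibitor gave -0.07 (95% interval -0.22 to 0.08) in YFPpos and 0.00 (95% interval -0.18 to 0.18) in YFPneg cells. The ratio of Bak1 to Mcl1 per kilobase was 0.0672 ± 0.00451 in naive cells (SD, n = 3) and 0.388 ± 0.00899 in YFPpos SGC0649 (n = 3).

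Bcl2l11, the gene of BIM (chr2:128126038-128162547, plus strand), was called against naive cells in the SGC0946 groups and not in the SGC0649 groups. It had 96.3, 89.6 and 94.02 CPM in naive cells, 118 and 90.4 in YFPneg SGC0649, 135, 139.7 and 127 in YFPneg SGC0946, 127, 93.1 and 77.3 in YFPpos SGC0649, and 127, 128 and 107 in YFPpos SGC0946. The SGC0649 libraries spread widely and overlapped the naive ones, while all 6 SGC0946 libraries lay above them. The log2 difference from naive cells was 0.52 (SE 0.14, adjusted p 0.0023) in YFPneg SGC0946 and 0.37 (SE 0.13, adjusted p 0.018) in YFPpos SGC0946. The second call ended without naive replicate 2 (adjusted p 0.059), without YFPpos SGC0946 replicate 1 (0.058) and without YFPpos SGC0946 replicate 2 (0.060). With SGC0649 the values were 0.09 (SE 0.14, adjusted p 0.56) in YFPpos and 0.16 (SE 0.15, adjusted p 0.36) in YFPneg cells, neither called. Compound against compound, the inhibitor gave 0.28 (95% interval 0.00 to 0.56) in YFPpos and 0.37 (95% interval 0.05 to 0.68) in YFPneg cells, with adjusted p of 0.13 and 0.13. Without YFPpos SGC0649 replicate 1, the highest library of its group, the value in YFPpos cells was 0.50 (adjusted p 0.0027).

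Bid, whose protein links death receptors to mitochondria once caspase-8 cuts it (chr6:120891930-120916853, minus strand), was lower in cultured than in naive cells. Its CPM were 22.7, 21.3 and 19.6 in naive cells, 15.1 and 13.7 in YFPneg SGC0649, 16.03, 13.9 and 10.7 in YFPneg SGC0946, 12.8, 14.8 and 16.7 in YFPpos SGC0649, and 12.98, 11.3 and 12.9 in YFPpos SGC0946. All cultured libraries lay below the naive ones and the cultured groups overlapped. The log2 difference from naive cells was -0.52 (SE 0.14, adjusted p 0.0030) in YFPpos SGC0649, -0.56 (SE 0.16, adjusted p 0.0060) in YFPneg SGC0649, -0.77 (SE 0.14, adjusted p 9.3e-05) in YFPpos SGC0946 and -0.64 (SE 0.15, adjusted p 0.00082) in YFPneg SGC0946. In YFPneg SGC0649 the call ended without replicate 2 of that group (adjusted p 0.053). Between the sorts Bid differed by 0.03 (95% interval -0.31 to 0.37) with SGC0649 and -0.13 (95% interval -0.44 to 0.18) with SGC0946, and between the compounds by -0.25 (95% interval -0.56 to 0.05) in YFPpos and -0.09 (95% interval -0.43 to 0.26) in YFPneg cells, none of them called.

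Bmf, a BH3-only gene known for responses to detachment and to loss of survival factors (chr2:118528757-118549687, minus strand), had the lowest level per kilobase of the 10 in every cultured group. Naive cells had 6.05, 5.92 and 10.1 CPM, YFPneg SGC0649 had 3.00 and 1.18, YFPneg SGC0946 had 6.25, 2.31 and 1.05, YFPpos SGC0649 had 1.78, 1.39 and 0.865, and YFPpos SGC0946 had 5.82, 5.64 and 3.38. The YFPpos SGC0946 libraries lay wholly above the YFPpos SGC0649 libraries and below the naive ones. The log2 difference from naive cells was -2.45 (SE 0.50, adjusted p 0.00027) in YFPpos SGC0649 and -0.58 (SE 0.45, adjusted p 0.24) in YFPpos SGC0946, where it was called when only the 2 groups were fitted (-0.57, adjusted p 0.022). In YFPpos cells the inhibitor gave 1.87 (SE 0.50, adjusted p 0.011), a level 3.65-fold higher, and the call ended without YFPpos SGC0649 replicate 3 (1.63, adjusted p 0.060). In YFPneg cells it gave 0.64 (95% interval -0.56 to 1.84), with the YFPneg SGC0946 libraries widely spread. YFPneg cells differed from naive cells by -1.81 (SE 0.56, adjusted p 0.0087) with SGC0649 and -1.17 (SE 0.47, adjusted p 0.035) with SGC0946. The first of these calls ended without YFPneg SGC0649 replicate 2 (-1.30, adjusted p 0.11). The second ended without naive replicate 3 (-0.87, adjusted p 0.16), YFPneg SGC0946 replicate 2 (-0.97, adjusted p 0.11) or YFPneg SGC0946 replicate 3 (-0.76, adjusted p 0.10), and when only the 2 groups were fitted (-1.18, adjusted p 0.051). Between the sorts with SGC0946 Bmf gave 0.59 (adjusted p 0.31), and 1.53 (adjusted p 0.011) without YFPneg SGC0946 replicate 1.

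Bad, whose protein is held inactive by phosphorylation downstream of growth signals (chr19:6941861-6951899, plus strand), rose in all cultured groups. It had 7.37, 8.22 and 7.43 CPM in naive cells, 12.95 and 16.4 in YFPneg SGC0649, 12.1, 15.7 and 13.1 in YFPneg SGC0946, 15.4, 15.8 and 12.9 in YFPpos SGC0649, and 15.6, 17.2 and 16.5 in YFPpos SGC0946. Cultured and naive libraries did not overlap, and the cultured groups lay close together. The log2 difference from naive cells was 0.94 (SE 0.14, adjusted p 1.0e-05) in YFPpos SGC0649, 0.94 (SE 0.16, adjusted p 4.5e-05) in YFPneg SGC0649, 1.10 (SE 0.14, adjusted p 1.4e-06) in YFPpos SGC0946 and 0.83 (SE 0.14, adjusted p 6.3e-05) in YFPneg SGC0946. The inhibitor gave 0.16 (95% interval -0.12 to 0.44) in YFPpos and -0.10 (95% interval -0.43 to 0.22) in YFPneg cells. Between the sorts with SGC0946 the value was 0.27 (adjusted p 0.10), and 0.38 (adjusted p 0.030) without YFPneg SGC0946 replicate 2.

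Across the 14 libraries the members' patterns were described by Pearson correlations of log2 CPM, which mix the 5 groups and share libraries and depth. Bcl2 went with Bcl2a1d (r = 0.96) and Bcl2a1b (0.95). Bcl2l1 went with Bak1 (0.91) and against Mcl1 (-0.90). Bcl2l11 had its widest value, -0.58, with Bid. Over the 8978 other genes whose log2 CPM averaged 3 or more, those most like Bcl2 were Kdm2b (0.987), Atad2 (0.985) and N4bp3 (0.985). Those most like Mcl1 were Cmah (0.994), Gm4955 (0.994) and Pydc4 (0.993), and those most like Bcl2l1 were Hspd1 (0.994), Actl6a (0.994) and Mrto4 (0.993). The gene most like Bak1 was Cyfip1 (0.997). For Bcl2a1d they were Pbk (0.989), Ska3 (0.988) and Wee1 (0.984), and for Bcl2a1b they were Rgs12 (0.986), Bbs12 (0.985) and Mad2l2 (0.981). Among the BH3-only genes, Bad was most like Cuedc2 (0.973), Bid most like Zfp507 (0.952), Bcl2l11 most like Usp35 (0.948) and Bmf most like March6 (0.925).

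Of 16 further genes of the family, 12 were tested, while Bcl2a1a, Bcl2a1c, Bcl2l10 and Hrk did not pass the filter on low counts. Against naive cells 8 rose and 2 fell in YFPpos SGC0649, 5 rose and 0 fell in YFPneg SGC0649, 7 rose and 2 fell in YFPpos SGC0946, and 7 rose and 1 fell in YFPneg SGC0946. Of all genes 79.8%, 69%, 80.7% and 72.9% were called in either direction in that order. The medians were 1.34, 0.30, 1.31 and 0.88 on the log2 scale, and the second was 0.36 with Bok, at 0 counts on both sides, left out. Over all genes the medians were 0.09, 0.03, 0.05 and 0.05. Pmaip1, the gene of the MCL1-binding BH3-only protein NOXA, had 1.59 ± 0.369 CPM in naive cells (SD, n = 3), 34.5 ± 8.79 in YFPneg SGC0649 (n = 2), 43.7 ± 12.3 in YFPneg SGC0946 (n = 3), 76.3 ± 8.08 in YFPpos SGC0649 (n = 3) and 159.5 ± 10.1 in YFPpos SGC0946 (n = 3). It was higher in YFPpos than in YFPneg cells by 1.14 (SE 0.18, adjusted p 7.3e-05) with SGC0649 and 1.86 (SE 0.16, adjusted p 3.8e-08) with SGC0946, and higher with the inhibitor in YFPpos cells by 1.06 (SE 0.15, adjusted p 1.0e-04). Bax, the gene of the other main pore-forming effector, had 67.3 ± 1.56 CPM in naive cells (n = 3) and 181 ± 16.5 in YFPpos SGC0649 (n = 3), and was higher in YFPpos than in YFPneg cells by 0.67 (SE 0.12, adjusted p 0.00023) with SGC0649 and 0.60 (SE 0.11, adjusted p 0.00014) with SGC0946. The inhibitor gave -0.39 (SE 0.10, adjusted p 0.011) for Bax in YFPpos cells, with an adjusted p of 0.061 without YFPpos SGC0649 replicate 3. Bcl2l2, the pro-survival gene of BCL-W, had 3.61 ± 0.0749 CPM in naive cells and 23.8 ± 1.00 in YFPpos SGC0649 (n = 3 each). Bok, a BAX-like gene, had 0 counts in all naive and YFPneg SGC0649 libraries. In YFPpos SGC0649 it had 30 counts over the group, or 0.447 CPM. Taking 3 counts as the upper limit of a group at 0, this was 7.51-fold above naive cells and 5.84-fold above YFPneg SGC0649. The 30 counts were taken as exact, so these folds are only approximate lower limits.

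Between the sorts 4 rose and 2 fell of these 12 genes with SGC0649, and 5 rose and 1 fell with SGC0946, with medians of 0.53 and 0.30. Of all genes 45.2% and 54.7% were called, with medians of 0.04 and 0.01. The gene that fell with SGC0946 was Bcl2l12, with -0.32 (SE 0.13, adjusted p 0.039), and this call was lost in 13 of 17 alternatives. With SGC0649 Bcl2l12 gave -0.37 (SE 0.14, adjusted p 0.039), lost in 6 of 15. Between the compounds 4 rose and 2 fell in YFPpos cells, and 3 rose and 1 fell in YFPneg cells, with medians of 0.31 and 0.22. Here 27.7% and 8.63% of all genes were called, with medians of -0.04 and 0.01. The genes that rose with the inhibitor in both sorts were Bcl2l14, a distant family member, by 1.72 (SE 0.31, adjusted p 0.00069) in YFPpos and 2.30 (SE 0.39, adjusted p 0.0026) in YFPneg cells, and the mitophagy receptors Bnip3 and Bnip3l. Bnip3 rose by 0.89 (SE 0.12, adjusted p 8.4e-05) and 0.66 (SE 0.14, adjusted p 0.011), and Bnip3l by 0.62 (SE 0.10, adjusted p 0.00043) and 0.46 (SE 0.12, adjusted p 0.023). In YFPneg cells these calls ended without YFPneg SGC0649 replicate 2 (adjusted p 0.12 for Bnip3 and 0.24 for Bnip3l), and for Bnip3l also when only the 2 groups were fitted (0.056). Bcl2l13, which shares a stretch of exon with Bid on the other strand, gave -0.24 (SE 0.06, adjusted p 0.0058) and -0.26 (SE 0.06, adjusted p 0.022), and the YFPneg call ended without YFPneg SGC0649 replicate 1 (0.11) and when only the 2 groups were fitted (0.32). The interaction called 0 of the 12.

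Downstream of the family, 15 genes of the apoptosome and the caspases were all tested. Against naive cells 10 rose and 4 fell in YFPpos SGC0649, 9 rose and 4 fell in YFPneg SGC0649, 10 rose and 5 fell in YFPpos SGC0946, and 10 rose and 4 fell in YFPneg SGC0946, with medians of 0.61, 0.62, 0.52 and 0.53. In that order 79.8%, 69%, 80.7% and 72.9% of all genes were called, with medians of 0.09, 0.03, 0.05 and 0.05. Apaf1, the scaffold of the apoptosome, had 58.0 ± 2.02 CPM in naive cells (SD, n = 3) and 162 ± 3.06 in YFPpos SGC0649 (n = 3), a log2 difference of 1.48 (SE 0.08, adjusted p 9.8e-12). Between the sorts 4 rose and 3 fell with SGC0649 and 5 rose and 4 fell with SGC0946, where 45.2% and 54.7% of all genes were called. Birc3, an inhibitor of apoptosis protein gene, was lower in YFPpos than in YFPneg cells, with differences of -0.58 (SE 0.06, adjusted p 1.3e-06) and -0.57 (SE 0.06, adjusted p 2.5e-07). It was still above naive cells, by 0.49 to 0.52 in YFPpos SGC0649 and 0.46 to 0.51 in YFPpos SGC0946 with single replicates left out. Between the compounds 2 rose and 2 fell in YFPpos cells, and 1 rose and 0 fell in YFPneg cells. Of all genes 27.7% and 8.63% were called there. Casp6, an executioner caspase, rose with the inhibitor by 0.96 (SE 0.13, adjusted p 6.6e-05) in YFPpos cells, from 63.1 ± 13.5 to 122 ± 6.37 CPM (SD, n = 3 each), and by 0.60 (SE 0.15, adjusted p 0.021) in YFPneg cells. The YFPneg call ended without YFPneg SGC0649 replicate 2 (adjusted p 0.22) and without YFPneg SGC0946 replicate 2 (0.0504).

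Of 13 genes whose products act on family proteins, 7 rose and 4 fell in YFPpos SGC0649 against naive cells, 6 rose and 5 fell in YFPneg SGC0649, 6 rose and 3 fell in YFPpos SGC0946 and 5 rose and 3 fell in YFPneg SGC0946. In that order 79.8%, 69%, 80.7% and 72.9% of all genes were called. Pim1, a kinase known to phosphorylate BAD, had 121 ± 4.45 CPM in naive cells and 498 ± 28.9 in YFPpos SGC0649 (SD, n = 3 each). Gzmb, the gene of granzyme B, which can cut BID in target cells, had 1.60 ± 1.13 CPM in naive cells and 3610.3 ± 124 in YFPpos SGC0649 (n = 3 each). Between the sorts 7 rose and 2 fell with SGC0649 and 6 rose and 3 fell with SGC0946, where 45.2% and 54.7% of all genes were called. Dynll1 and Dynll2, genes of dynein light chains that hold BIM and BMF, were higher in YFPpos cells, Dynll2 by 0.48 (SE 0.08, adjusted p 0.00018) with SGC0649. Between the compounds 1 rose and 4 fell in YFPpos cells, and 1 rose and 2 fell in YFPneg cells. Of all genes 27.7% and 8.63% were called there. In YFPpos cells Mapk8, the gene of the kinase JNK1, differed by -0.47 (SE 0.09, adjusted p 0.00085), and Huwe1, a ubiquitin ligase that acts on MCL1, by -0.24 (SE 0.06, adjusted p 0.0072), which became 0.053 without YFPpos SGC0649 replicate 3.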

How the data were processed

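RNA was sequenced from 14 samples of sorted mouse CD4+ T cells in 5 groups. The authors deposited raw read counts per gene, with no normalization, and the submitters' processing notes name featureCounts, edgeR, limma and the build GRCm38. The name of the deposited table gives counting on the reverse strand, and its 22048 rows are protein-coding genes per the file headers. The sources used here name neither the aligner nor the annotation. Of the genes, 12343 passed filterByExpr and were fitted with edgeR 4.0.16 (R 4.3.3; TMM factors, 5 group coefficients, all 14 libraries, glmQLFit and glmQLFTest), with Benjamini-Hochberg adjustment over all genes and a threshold of 0.05. The standard error was the absolute log2 fold change over the square root of F, and fitted fold changes use edgeR's prior count of 0.125. The biological coefficient of variation was 9.12%. CPM are scaled with TMM factors. Lengths and positions come from GENCODE M21, and upstream sequences from RefSeq (GRCm38.p6). No replicates were identical.

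All 10 members were tested in every comparison, and the text does not print the value of each member in each. Of the other lists up to 4 genes with the smallest p in a comparison are named, and any gene of the further family list. The members and lists were chosen with earlier results of these data known. Alternatives were other size factors, no filter on low counts, DESeq2 1.42.0, limma-voom (limma 3.58.1), only the groups compared, each replicate left out and replicate blocks. Added after the data were seen were library totals without factors, the Bcl2a1 copies summed, and 2 libraries of the SGC0946 groups left out together. A YFPneg SGC0649 library numbered 63 was not analysed here.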

Additional observations from a re-analysis of the deposited data

Results flagged for a closer look

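For 4 listed genes outside the 10, the compound difference itself differed between the sorts by the interaction test of edgeR (value in YFPpos minus value in YFPneg cells). For Fas, the gene of the death receptor FAS, the interaction was -0.59 (SE 0.11, adjusted p 0.012). Fas had 88.1 ± 10.5 CPM in YFPneg SGC0649 (SD, n = 2), 109 ± 1.30 in YFPneg SGC0946 (n = 3), 55.9 ± 0.846 in YFPpos SGC0649 (n = 3) and 45.9 ± 1.31 in YFPpos SGC0946 (n = 3), so that it was higher with the inhibitor in YFPneg cells, by 0.31 (SE 0.08, adjusted p 0.027), and lower in YFPpos cells, with -0.29 (SE 0.07, adjusted p 0.0084). Without YFPneg SGC0649 replicate 2 the adjusted p was 0.058 for the interaction and 0.23 for the difference in YFPneg cells.

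For Bach2, a transcriptional repressor gene of resting T cells, the interaction was -0.81 (SE 0.10, adjusted p 0.00082), with -0.81 in YFPpos and -0.00 in YFPneg cells, and it stayed past the threshold in all 22 alternatives. For Pim2, a kinase gene whose product acts on BAD, it was -0.43 (SE 0.10, adjusted p 0.039), with -0.68 and -0.24, and adjusted p over the alternatives reached 0.24. For Stat5b, the gene of a transcription factor downstream of IL-2 and IL-7, it was -0.35 (SE 0.07, adjusted p 0.021), with -0.36 and -0.00, and adjusted p over the alternatives reached 0.20.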

How the results depend on the processing

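Over all alternatives, 1334 single values of the members kept their direction and their side of the threshold, 21 kept the direction but lost the call, 13 gained it and 52 changed sign, and causes were not tested. Counts of members called stayed within 1.5 times those given, except between the compounds. In YFPpos cells the count went from 2 to 4 with limma-voom, to 4 when only the 2 groups were fitted, to 4 with a replicate block by the last digit of the number in the titles and to 4 with the Bcl2a1 copies summed. The last of these counts the single test of the sum for both Bcl2a1b and Bcl2a1d. The totals of single values above also hold the summed value for each of these copies. In YFPneg cells it went to 1 when only the 2 groups were fitted. Leaving out each replicate gave 1 to 3 members in YFPpos cells and 0 to 2 in YFPneg cells, 0 without YFPneg SGC0649 replicate 2 or YFPneg SGC0946 replicate 2. Over all genes the count called in YFPpos cells, 3424, went to 1887 without YFPpos SGC0649 replicate 3 and 2008 without YFPpos SGC0946 replicate 2. In YFPneg cells it went from 1065 to 236 when only the 2 groups were fitted, 336 without YFPneg SGC0649 replicate 2 and 1615 with DESeq2. The interaction's 142 genes went to 57 when only the 4 groups were fitted and 301 with DESeq2. They went to 62 and 80 without YFPneg SGC0649 replicates 1 and 2, 239 without YFPneg SGC0946 replicate 2, 71 without YFPpos SGC0649 replicate 2, and 65, 86 and 78 without YFPpos SGC0946 replicates 1 to 3. Leaving out a YFPneg SGC0649 library leaves 1, assumed to vary like the other groups.

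The sign changes were of values that were not called. Between the sorts with SGC0649, Bad gave -0.0029 without the filter and -0.035 with only the groups compared, Bid gave -0.0048 with only the groups compared and Bcl2a1b gave 0.096 with the copies summed. Between the sorts with SGC0946, Bcl2a1d gave -0.27 with the copies summed and -0.12 without YFPneg SGC0946 replicate 3 and YFPpos SGC0946 replicate 2. Between the compounds, Bcl2 gave 0.0046 in YFPpos and Bcl2a1b 0.019 in YFPneg cells with upper-quartile factors, Bcl2a1b gave 0.0050 in YFPneg cells without the filter, and Bak1 -0.012 in YFPneg cells with library totals.

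With single replicates left out, values that changed sign ran as follows. Against naive cells Bcl2l11 gave -0.13 to 0.23 in YFPpos SGC0649 and -0.046 to 0.34 in YFPneg SGC0649. Between the sorts with SGC0649 the ranges were -0.29 to 0.13 for Bcl2l11, -0.21 to 0.11 for Bcl2a1b, -0.052 to 0.71 for Bcl2a1d, -1.15 to 0.18 for Bmf, -0.16 to 0.18 for Bad and -0.078 to 0.13 for Bid, and with SGC0946 -0.27 to 0.0022 for Bid and -0.094 to 0.19 for Bcl2a1d. Between the compounds in YFPneg cells they were -0.23 to 0.16 for Bcl2a1b, -0.55 to 0.21 for Bcl2a1d, -0.096 to 0.11 for Bak1, -0.26 to 0.074 for Bad, -0.31 to 1.47 for Bmf, -0.0068 to 0.072 for Mcl1 and -0.23 to 0.055 for Bid. For the interaction they were -0.028 to 0.051 for Mcl1, -0.29 to 0.14 for Bcl2l11, -0.66 to 0.10 for Bcl2a1d, -0.18 to 0.026 for Bak1 and -0.28 to 0.084 for Bcl2l1.

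The numbers in the titles did not meet the rule used for pairing, which set a least correlation for every shared number. The sources used here do not state what the numbers mark, so the samples may still be paired. With SGC0946 the 2 sorts' deviations correlated at 0.11, 0.078 and 0.041 for the 3 shared numbers, although each sample correlated best with its own number. With SGC0649 the sorts gave 0.12, and the compounds in YFPpos cells gave 0.036, 0.14 and 0.21 for last digits 1 to 3. With a replicate block by the full number, 3 and 4 members were called between the sorts with SGC0649 and SGC0946, 4349 and 6217 genes were called (5585 and 6752 without it), and the interaction called 96 genes. Under that block Bid gave -0.096 and Bcl2l11 0.044 between the sorts with SGC0649, and Bcl2l1 0.11 for the interaction. Under the block by the last digit Mcl1 gave -0.0011 for the interaction, Bcl2a1b was called between the compounds in YFPpos cells (-0.46, adjusted p 0.031), and Bcl2l11 was called with the inhibitor in YFPpos (0.30, adjusted p 0.043) and YFPneg cells (0.44, adjusted p 0.032). Depth limits Bmf and the Bcl2a1 genes most, with 20 to 41 counts per library for Bmf in YFPpos SGC0649 and 7 to 27 for Bcl2a1d in naive cells.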

Other observations

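Genes of the survival signals that act on the family were described by a list of 16 receptors and transcription factors, all tested. Against naive cells 7 rose and 7 fell in YFPpos SGC0649, 9 rose and 4 fell in YFPneg SGC0649, 6 rose and 8 fell in YFPpos SGC0946 and 9 rose and 5 fell in YFPneg SGC0946, with medians of -0.11, 0.45, -0.10 and 0.49 on the log2 scale. In that order 79.8%, 69%, 80.7% and 72.9% of all genes were called, with medians of 0.09, 0.03, 0.05 and 0.05. Il2ra, the gene of the alpha chain of the IL-2 receptor, had 51.9 ± 13.3 CPM in naive cells and 2769.8 ± 49.4 in YFPpos SGC0649 (SD, n = 3 each). Myc, a growth regulator, had 113 ± 7.38 and 427 ± 29.3 CPM in the same groups. Between the sorts 2 rose and 6 fell with SGC0649 and 4 rose and 9 fell with SGC0946, where 45.2% and 54.7% of all genes were called. Klf2, a transcription factor gene of resting T cells, was lower in YFPpos than in YFPneg cells, with -2.27 (SE 0.18, adjusted p 3.8e-08) and -1.92 (SE 0.16, adjusted p 3.6e-08). Between the compounds 3 rose and 5 fell in YFPpos cells and 0 rose and 2 fell in YFPneg cells. Of all genes 27.7% and 8.63% were called there. Nfkb1 was lower with the inhibitor in YFPpos cells, with -0.59 (SE 0.06, adjusted p 8.2e-06).

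Of 10 genes of the death receptor arm, 5 rose and 4 fell in YFPpos SGC0649 against naive cells, 4 rose and 3 fell in YFPneg SGC0649, 5 rose and 4 fell in YFPpos SGC0946 and 3 rose and 3 fell in YFPneg SGC0946. In that order 79.8%, 69%, 80.7% and 72.9% of all genes were called. Cflar, the gene of FLIP, which blocks caspase-8, had 329 ± 12.1 CPM in naive cells and 168 ± 6.58 in YFPpos SGC0649 (n = 3 each), and differed between the sorts by -0.41 (SE 0.06, adjusted p 3.8e-05) with SGC0649 and -0.40 (SE 0.05, adjusted p 1.0e-05) with SGC0946. Tnfsf10, the gene of the death ligand TRAIL, was higher in YFPpos than in YFPneg cells, by 1.27 (SE 0.14, adjusted p 2.6e-06) and 1.18 (SE 0.13, adjusted p 5.9e-07). Tnfrsf10b, the gene of its receptor, was lower with the inhibitor in YFPpos cells, with -0.70 (SE 0.13, adjusted p 0.0011). Between the compounds 1 rose and 3 fell in YFPpos cells and 1 rose and 0 fell in YFPneg cells, where 27.7% and 8.63% of all genes were called.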
